A study of Triticum aestivum with 15 samples.

Results

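The array carried probe sets for 3 genes of glutathione transferases and 1 gene of lactoylglutathione lyase, enzymes that use glutathione, and these were followed through the germination of wheat seed. They were chosen by gene symbol, as all probe sets that the probe annotation table of the array gives to LOC100037523, LOC542994, LOC542993 or LOC542984. These 4 genes were 4 of 771 genes with a symbol in that table, and they had 7 probe sets of the 61179 that were tested. LOC100037523 and LOC542994 had 1 probe set each, LOC542993 had 3 and LOC542984 had 2. Where a gene has several, a probe set is named by the GenBank accession of its target in the probe annotation.

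Glutathione transferases join the tripeptide glutathione to electrophilic compounds such as products of lipid oxidation and many foreign chemicals, and some also reduce peroxides. Plants carry large families of them, of which the phi class (GSTF) and the tau class (GSTU) are the most numerous and respond to many stresses. Lactoylglutathione lyase, also called glyoxalase I, acts on the adduct that glutathione forms with methylglyoxal, a toxic by-product of glycolysis, and hands its product to glyoxalase II. In seeds, oxidised lipids and proteins build up during storage, and respiration starts again when the seed takes up water.

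The seeds were those of the bread wheat cultivar Jimai 20, with no other genotype and no treatment besides water. The 5 stages were the dry seed at 0 hours after imbibition (HAI), the seed at 12 HAI after steeping, and the germinating seed at 24, 36 and 48 HAI, when by the study's description the radicle had broken through, radicle and shoot were out, and the shoot had turned green. Total RNA of germinating seeds was hybridised to 15 arrays, 3 biological replicates for each stage, and each probe set has 1 intensity per array, the MAS 5.0 signal deposited by the authors on a linear scale. The RNA came from all tissues of the seed together, so fewer cells of a type and less RNA per cell cannot be told apart.

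The gene identities rest on matches of different strength. LOC100037523 was matched to the rice transferase GSTF2, and the probe set CA733231 of LOC542993 to the rice transferase GSTU6. LOC542994 was matched only to a rice protein with the N-terminal domain of a glutathione transferase, so its class was not given. These rice matches are those of a gene table of the study, which starts from genes it found differential on these arrays. The other probe sets of LOC542993, CA698466 and CA663935, and both probe sets of LOC542984 had no rice match, and LOC542984 is named from its synonym in the reference gene table. CA733231 is of a type, marked x_at, with probes that can bind other transcripts as well, and an array of this kind may not separate the copies of a gene on the A, B and D genomes of wheat. Levels were therefore compared between stages and not between probe sets, and a difference between 2 probe sets of an array is read here only for how it changes with stage.

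Several measures of the arrays moved with stage. The median intensity of an array was 90.5 to 101 at 0 HAI and 64.4 to 78.0 at the later stages, and over all probe sets the median log2 change between 0 and 12 HAI was -0.23. The ratio of 3' to 5' signal of the G6PDH control, which is higher where RNA is shorter or copied less completely, was 9.53 ± 1.31 at 0 HAI, 16.1 ± 0.627 at 24 HAI and 28.6 ± 7.38 at 48 HAI (SD, n = 3). The other controls did not move alike. The ratio of actin was 0.909 ± 0.424, 0.410 ± 0.302, 0.296 ± 0.208 and 8.50 ± 2.53 at these stages. That of GAPDH was 0.410, 0.0908 and 0.356 on the arrays of 0 HAI and 0.432, 0.527 and 2.24 on those of 48 HAI. The summed signal of 12 probe sets for Em, dehydrin and other late embryogenesis proteins ran from 498553 to 533856 at 0 HAI. It ran from 232418 to 280005 at 12 HAI and from 22139 to 24609 at 48 HAI. That of 17 gliadin, glutenin and avenin-like probe sets of the endosperm ran from 27189 to 30505 and from 4462 to 4852. That of 31 histone and tubulin probe sets of dividing and growing cells ran the other way, from 57091 to 64195 at 0 HAI and from 373881 to 393884 at 48 HAI. The part of these measures in the changes below was not tested.

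The 4 genes did not follow 1 course. On the deposited scale LOC100037523 and LOC542994 were lowest at 12 HAI, when the CA733231 probe set of LOC542993 was highest, and from 12 to 24 HAI the first pair rose while LOC542993 fell. LOC542984 was near the bottom of the scale in dry and newly imbibed seed. Of its probe sets, BQ162050 came up between 12 and 24 HAI. CD862522 was called higher than in dry seed at 36 HAI, still near the bottom of the scale, and rose further by 48 HAI. In the moderated F-test over the 5 stages (limma, Benjamini-Hochberg adjusted over all probe sets, threshold 0.05), 6 of the 7 probe sets differed, beside 47.7% of all probe sets. The seventh was CA663935 of LOC542993 (adjusted p = 0.0889). LOC100037523, LOC542994 and CA733231 had matches in a table of genes that the study chose on these arrays. The count of 6 is therefore not independent evidence.

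**Figure D1:**
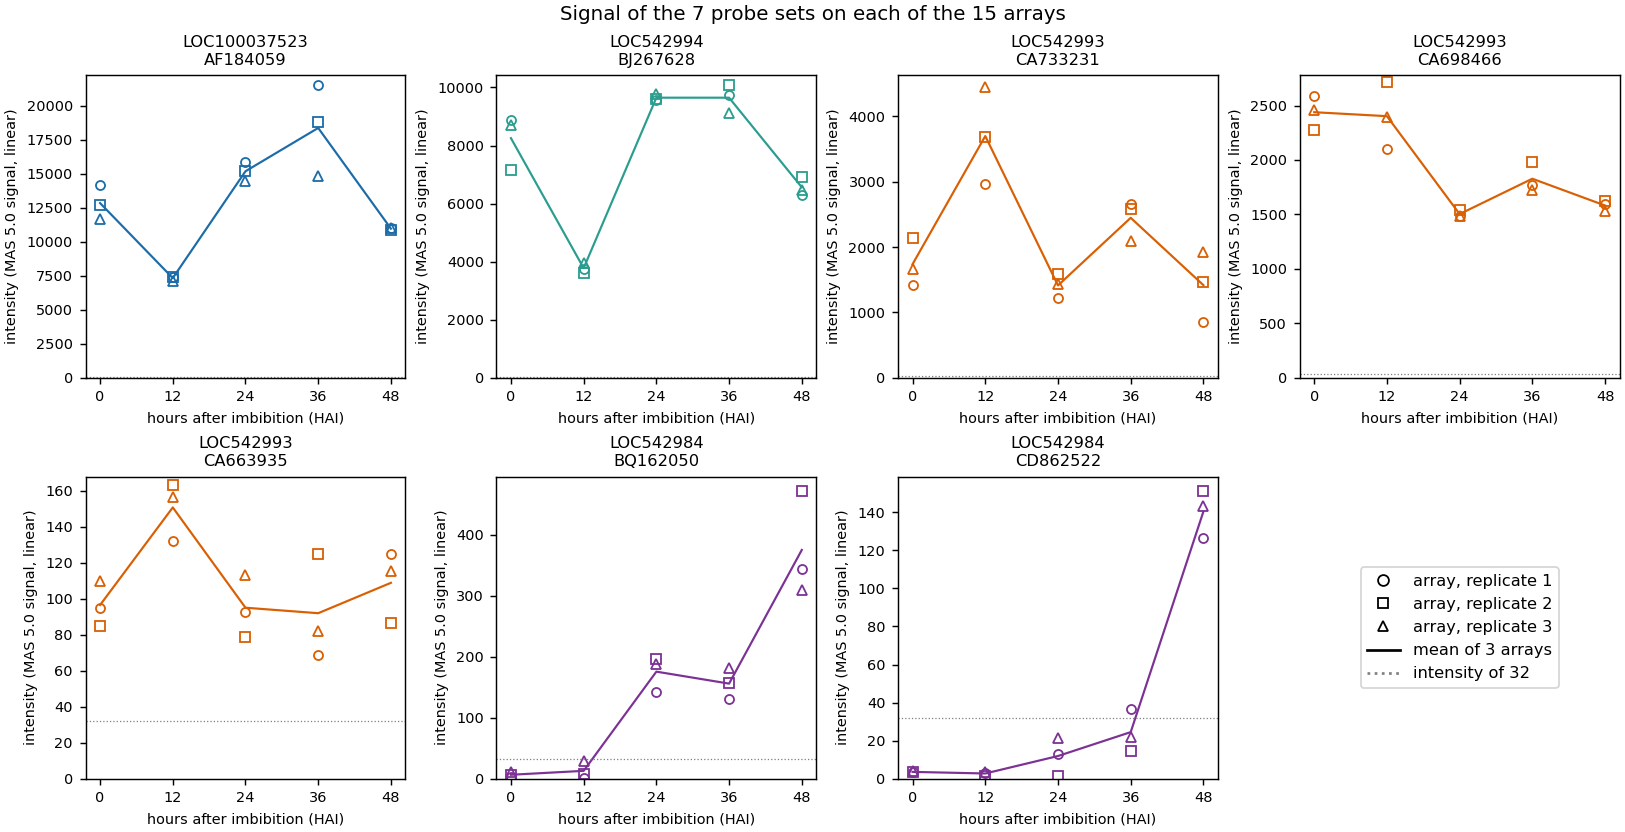
Signal of each of the 7 probe sets (y axis, MAS 5.0 intensity on a linear scale starting at 0, a different range in each panel) against hours after imbibition (x axis), with 1 symbol per array and a line through the means of the 3 arrays of a stage. LOC100037523 and LOC542994 dip to means of 7323 and 3774 at 12 HAI on this scale, where CA733231 peaks at 3699, and both probe sets of LOC542984 are highest at 48 HAI. The dips from 0 to 12 HAI turn into rises when the arrays are scaled to the poly-A controls.

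LOC100037523, the phi class transferase, had the intensities 14145, 12719 and 11660 on the 3 arrays of 0 HAI. At 12 HAI they were 7414, 7415 and 7139, at 24 HAI 15865, 15180 and 14499, at 36 HAI 21507, 18788 and 14803, and at 48 HAI 11032, 10858 and 10987. All arrays of 12 HAI lay below all others, and the arrays of 24 and 36 HAI overlapped. The stage means were 12841 ± 1247, 7323 ± 160, 15181 ± 683, 18366 ± 3372 and 10959 ± 90.1 (SD, n = 3), and the highest was 2.48 times the lowest on the fitted scale, the log2 of the intensity plus 16 (F-test, adjusted p = 5.33e-05).

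From 0 to 12 HAI, LOC100037523 fell by 0.80 on the log2 scale (SE 0.14, adjusted p = 0.00124), but this fall depended on how the arrays were scaled. With the array medians set equal the change was -0.38 (adjusted p = 0.115), and with the arrays scaled to the poly-A controls, which are added to the RNA before labelling, it was a rise of 0.78. From 12 to 24 HAI the gene rose by 1.05 (SE 0.14, adjusted p = 8.46e-05), which passed under every alternative run. From 24 to 36 HAI the change was 0.26 (adjusted p = 0.422). It then fell by 0.73 from 36 to 48 HAI (adjusted p = 0.00599), again under every alternative run. Against the dry seed, 36 HAI was higher by 0.50 (adjusted p = 0.0119), a call lost without replicate 1 of 36 HAI (0.38, adjusted p = 0.0537), and 48 HAI differed by -0.22 (adjusted p = 0.230).

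LOC542994, the gene with a transferase domain, had intensities of 8874, 7168 and 8719 at 0 HAI. At 12 HAI they were 3743, 3614 and 3965, at 24 HAI 9554, 9617 and 9774, at 36 HAI 9741, 10090 and 9113, and at 48 HAI 6286, 6909 and 6483. Its order of stages was close to that of LOC100037523, with 12 HAI below all other arrays and 24 and 36 HAI overlapping. The stage means were 8254 ± 944, 3774 ± 178, 9649 ± 114, 9648 ± 495 and 6559 ± 318 (SD, n = 3), a range of 2.55-fold on the fitted scale (F-test, adjusted p = 2.99e-06).

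From 0 to 12 HAI, LOC542994 fell by 1.12 (SE 0.12, adjusted p = 2.05e-05) on the deposited scale, which was -0.46 (adjusted p = 0.145) with the arrays scaled to the hybridization controls and a rise of 0.46 when scaled to the poly-A controls. The rise from 12 to 24 HAI was 1.35 (SE 0.12, adjusted p = 2.01e-06) and the fall from 36 to 48 HAI was -0.56 (adjusted p = 0.00939). Both passed under every alternative run. From 24 to 36 HAI its mean moved by less than the SD between arrays. The change from 0 to 48 HAI was -0.33 (adjusted p = 0.0410), and this call did not hold: it was lost when any of 11 of the 15 arrays was left out, and the sign turned under 3 of the scalings.

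LOC542993 showed another course, and its 3 probe sets did not move alike. CA733231, the probe set with the tau class match, had intensities of 1414, 2142 and 1657 at 0 HAI. At 12 HAI they were 2964, 3686 and 4447, at 24 HAI 1217, 1586 and 1433, at 36 HAI 2663, 2585 and 2093, and at 48 HAI 857, 1468 and 1922. The 12 HAI arrays lay above all others, and 0, 24 and 48 HAI overlapped. The stage means were 1738 ± 371, 3699 ± 741, 1412 ± 185, 2447 ± 309 and 1416 ± 534 (SD, n = 3), a 2.70-fold range on the fitted scale (F-test, adjusted p = 0.00317).

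This probe set rose by 1.08 from 0 to 12 HAI (SE 0.27, adjusted p = 0.0128), a call lost only without replicate 3 of 12 HAI (0.94, adjusted p = 0.0522). It fell by 1.37 from 12 to 24 HAI (SE 0.27, adjusted p = 0.00193) under every alternative run. The later swings did not pass: 0.79 from 24 to 36 HAI (adjusted p = 0.145) and -0.85 from 36 to 48 HAI (adjusted p = 0.0725). The first passed with an intensity trend (adjusted p = 0.0336) and the poly-A scaling (1.33). The second passed with a pseudocount of 64 (adjusted p = 0.0464), an intensity trend (0.0140), dim probe sets left out (0.0442), the hybridization controls (-1.13), the poly-A scaling (-1.62) and without replicate 3 of 48 HAI (-1.11), and leaving out 1 array moved it between -1.11 and -0.53. From 0 to 48 HAI the change of CA733231 was -0.35 (adjusted p = 0.345), or -0.60 to -0.027 with 1 array left out.

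CA698466 of LOC542993 had intensities of 2584, 2272 and 2460 at 0 HAI and of 2102, 2715 and 2390 at 12 HAI. On the deposited scale it thus showed no peak at 12 HAI. At 24 HAI it had 1486, 1539 and 1483, at 36 HAI 1774, 1983 and 1726, and at 48 HAI 1594, 1623 and 1528. The change from 0 to 12 HAI was -0.03 (SE 0.12, adjusted p = 0.898). Under both control scalings CA698466 was called higher at 12 HAI. The change was 0.63 with the hybridization controls (limma, adjusted p = 0.0204) and 1.54 with the poly-A controls (adjusted p = 4.53e-07). On the deposited scale CA698466 changed more at the next step. It fell by 0.66 from 12 to 24 HAI (adjusted p = 0.00104), a call lost with the arrays scaled to the hybridization controls (-0.37, adjusted p = 0.163). At 48 HAI it was lower than in the dry seed by 0.62 (adjusted p = 0.00125) on the deposited scale, a change that was -0.18 (adjusted p = 0.40) with equal array medians and turned in sign under both control scalings.

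CA663935 of LOC542993 was dim, with 94.98, 84.67 and 109.8 at 0 HAI, 132.2, 163.1 and 156.7 at 12 HAI and 92.81, 78.82 and 113.3 at 24 HAI. Its 12 HAI arrays also lay above those of 0 and 24 HAI. The change from 0 to 12 HAI was 0.57 (adjusted p = 0.0662), which missed the threshold but passed with a pseudocount of 64 (0.42, adjusted p = 0.0480), with dim probe sets left out (0.57, adjusted p = 0.0421), without replicate 2 of 36 HAI (0.57, adjusted p = 0.0359) and under all 4 other scalings (0.92 to 1.82). The change from 12 to 24 HAI was -0.59 (adjusted p = 0.0482), and this call was lost when any of 11 of the 15 arrays was left out and under 6 other alternatives, among them both control scalings and the replicate block.

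The disagreement between the first 2 probe sets of LOC542993 was also seen within arrays, where a scaling factor of the whole array drops out. From 0 to 12 HAI, CA698466 changed by 1.11 less on the log2 scale than CA733231, with no overlap of the arrays (exact permutation test, two-sided, p = 0.10, the smallest that 3 against 3 arrays allow). All 3 probe sets of the gene passed as lower at 24 than at 12 HAI, CA663935 only under some settings. That LOC542993 was higher at 12 than at 0 HAI was thus called for CA733231, depended on the setting for CA663935 and was not seen in CA698466 on the deposited scale.

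LOC542984, lactoylglutathione lyase, was followed by BQ162050 and CD862522. BQ162050 had 2.83, 5.74 and 10.9 at 0 HAI and 1.92, 7.77 and 29.1 at 12 HAI, all under the intensity of 32 below which a value is treated here only as a bound. At 24 HAI it had 142.1, 196.5 and 188.5, at 36 HAI 130.3, 156.5 and 181.4, and at 48 HAI 344.1, 472.3 and 309.7. The signal thus came up between 12 and 24 HAI, and the arrays of 48 HAI lay above all others.

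From 12 to 24 HAI, BQ162050 of LOC542984 rose at least 5.44-fold (fitted log2 change 2.83, SE 0.30, adjusted p = 1.2e-05). From 24 to 36 HAI it changed by -0.15 (adjusted p = 0.902). The rise from 36 to 48 HAI was 1.17 (SE 0.30, adjusted p = 0.0264), a call lost with a pseudocount of 4, with an intensity trend, under both control scalings and without replicates 1 or 2 of 36 HAI or of 48 HAI. From 0 to 48 HAI it rose at least 11.5-fold (adjusted p = 2.26e-07), under every alternative run.

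CD862522 of LOC542984 stayed low for longer. It had 3.31, 3.41 and 4.05 at 0 HAI, 2.95, 1.67 and 3.64 at 12 HAI, 13.2, 1.45 and 21.1 at 24 HAI and 36.8, 14.7 and 22.0 at 36 HAI, against 126.5, 151.2 and 143.3 at 48 HAI. Only 1 array before 48 HAI was above 32. At 36 HAI CD862522 was already called higher than at 0 HAI (limma, log2 change 1.01, adjusted p = 0.00608), at values mostly under 32. It rose at least 4.17-fold from 36 to 48 HAI (fitted log2 change 1.98, SE 0.25, adjusted p = 0.000476) and at least 4.37-fold from 0 to 48 HAI (adjusted p = 8.36e-07), both under every alternative run. Its change from 12 to 24 HAI was 0.51 (adjusted p = 0.175). All its values at these stages were under 32, so no fold is given. From 12 to 24 HAI the within-array difference between CD862522 and BQ162050 changed without overlap of the arrays (exact permutation test, two-sided, p = 0.10). No size of it is given for the same reason.

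**Figure D2:**
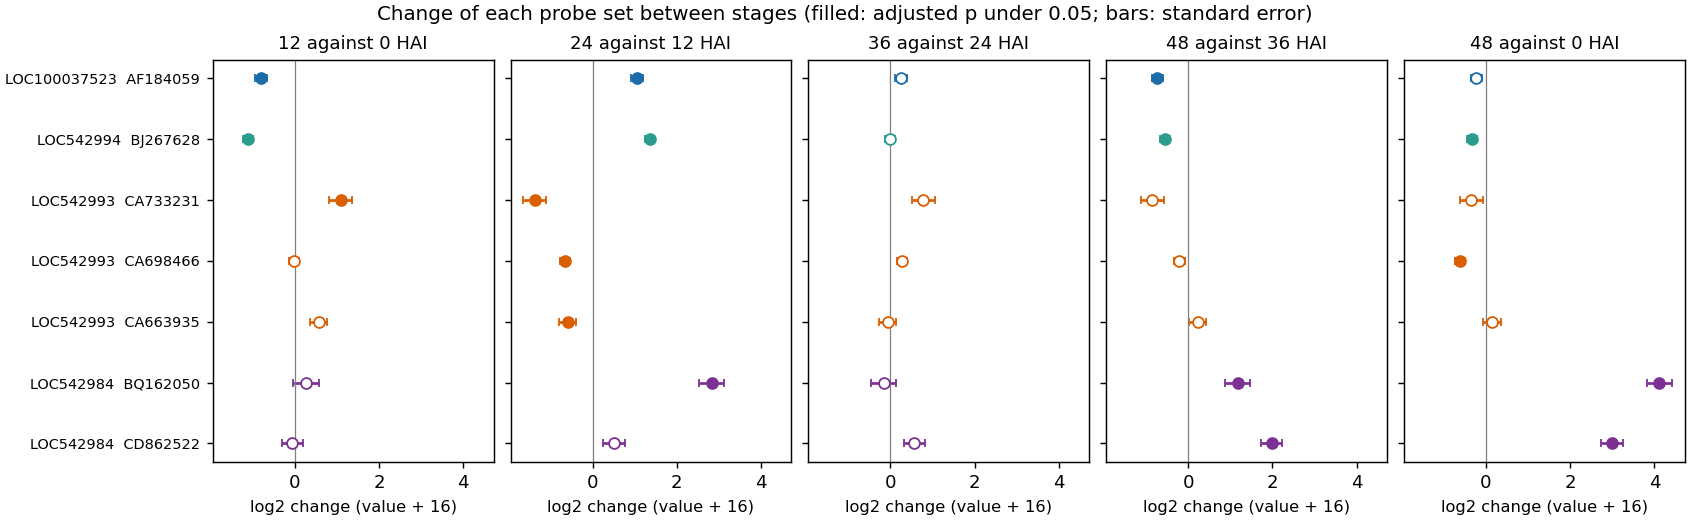
Log2 change of each probe set (points, x axis, on the log2 of the intensity plus 16) in 5 contrasts, with the standard error of the fit as bars and filled points for an adjusted p under 0.05. From 12 to 24 HAI the transferases LOC100037523 (1.05) and LOC542994 (1.35) lie right of 0 and the 3 probe sets of LOC542993 (-0.59 to -1.37) left of it. The points of 12 against 0 HAI depend on the scaling of the arrays, and those of LOC100037523 and LOC542994 turn to the right under the poly-A scaling.

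Counted by contrast, 1 probe set rose from 0 to 12 HAI (10.1% of all probe sets rose) and 2 fell (12.8% of all fell). Over all probe sets this split was 6191 higher and 7807 lower, and with the poly-A scaling it was 26477 and 410. From 12 to 24 HAI 3 probe sets rose (13.3% of all) and 3 fell (14.8% of all), while the split over all was 8113 and 9063, or 9270 and 4954 with the hybridization controls. On the deposited scale this was the successive step with the most calls, for the 7 probe sets and for the whole array.

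From 24 to 36 HAI no probe set of the 4 genes passed in limma (2.41% of all rose and 2.99% fell), and 3 of 7 had an unadjusted p under 0.05. Over all probe sets 1472 rose and 1832 fell at this step, and 12786 and 702 with the poly-A scaling, under which 5 of the 7 were called. From 36 to 48 HAI 2 rose, both of LOC542984 (5.34% of all), and 2 fell, LOC100037523 and LOC542994 (5.28% of all). The split over all probe sets at this last step was 3264 and 3230, and 445 and 19817 with the poly-A scaling.

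From 0 to 48 HAI 2 of the 7 probe sets were higher (17% of all) and 2 lower (23.8% of all). The higher ones were those of LOC542984, and the lower ones were LOC542994 and CA698466. Over all probe sets 10403 were higher and 14583 lower, and 24299 and 2283 with the poly-A scaling, under which all 7 were called. At 24 HAI 1 probe set was higher than in the dry seed (15.3% of all) and 1 lower (22.3% of all), BQ162050 and CA698466. This call of CA698466 was lost with equal array medians (-0.23, adjusted p = 0.269). Its sign turned with the hybridization controls (0.26) and the poly-A controls (1.11). At 36 HAI 3 were higher (16.5% of all) and 1 lower (24.8% of all). The higher ones were LOC100037523, whose call was lost without 1 array, BQ162050, and CD862522, which was under 32 on 5 of the 6 arrays compared (1.01, adjusted p = 0.00608), and the lower one was CA698466 (-0.41, adjusted p = 0.0160), whose call was lost without replicate 3 of 36 HAI (adjusted p = 0.0557) and whose sign turned with equal array medians and with both control scalings. With the poly-A scaling the splits over all probe sets were 27325 higher and 1132 lower at 24 HAI and 34665 and 1146 at 36 HAI, instead of 9357 and 13660 and of 10124 and 15164. The contrasts with 0 HAI share the same 3 arrays of dry seed.

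The courses of the transferases were compared directly through log2 differences within each array. The array's scaling factor cancels from these differences, and only their change between stages is read. Such a change shows that the courses of a pair differ, not that they run in opposite directions. For LOC542993 the probe set with the highest mean over all arrays, CA733231, was taken, and it had that mean only through its values at 12 HAI, since without them CA698466 was higher. The changes with CA733231 are therefore given as a description. For LOC542994 minus CA733231 the difference changed by -2.20 from 0 to 12 HAI and by 2.72 from 12 to 24 HAI, with SDs of 0.465, 0.258 and 0.184 at the 3 stages (n = 3), and neither pair of stages overlapped. For LOC100037523 minus CA733231 the changes were -1.89 and 2.42, again without overlap.

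With CA698466 in place of CA733231 the changes were smaller in the same directions, -1.09 and 2.02 for LOC542994 and -0.78 and 1.71 for LOC100037523. Each of these 4 had an exact two-sided permutation p of 0.10, the smallest that 3 against 3 arrays can give, so the design cannot reach the threshold. The sign of the own change from 0 to 12 HAI of LOC100037523 and of LOC542994 depended on the scaling, as given above, while CA733231 rose under each scaling run.

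The phi class gene and LOC542994 parted less. Their within-array difference changed by 0.32 from 0 to 12 HAI and by -0.30 from 12 to 24 HAI (exact permutation p = 0.10 for both, no overlap), and by 0.10 from 0 to 48 HAI (p = 0.70). Over 0 to 48 HAI the differences of both to LOC542993 changed by 0.12 and 0.02 (exact permutation p = 0.70 and 0.90), with stages that overlapped. With CA698466 they were 0.39 and 0.29, both at an exact permutation p of 0.10. Against LOC542984 no size of the difference is given, since BQ162050 was under 32 in dry seed.

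**Figure D3:**
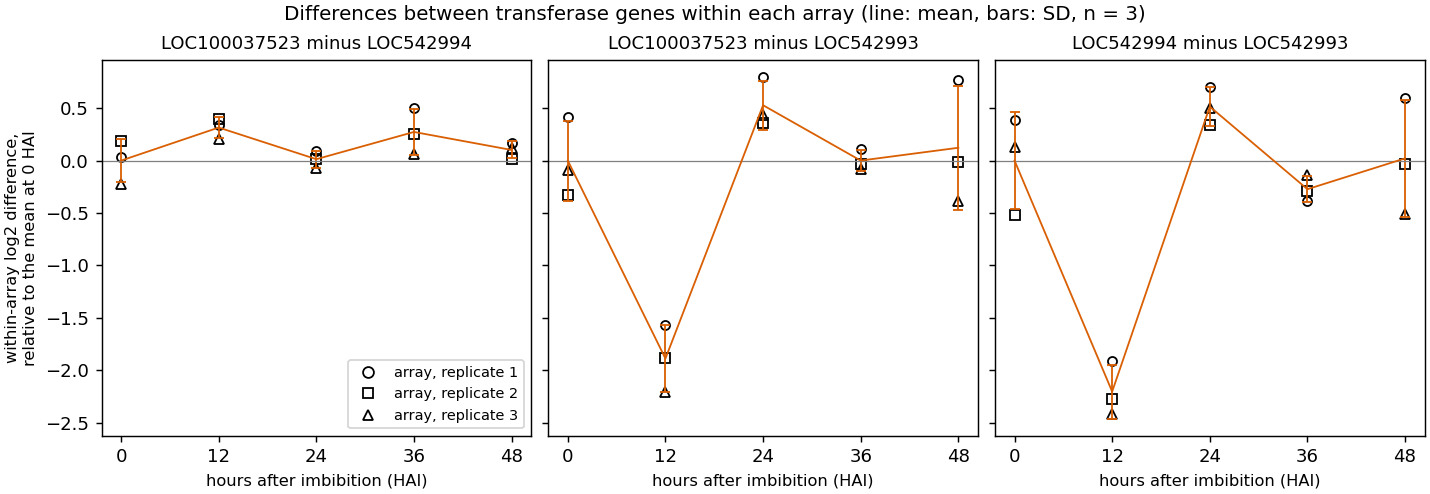
Log2 difference between transferase genes within each array (symbols), relative to its mean at 0 HAI, against hours after imbibition, with the mean and SD of 3 arrays as line and bars. LOC542993 is shown by CA733231, which had the highest mean of its probe sets only through its values at 12 HAI. The differences of LOC100037523 and LOC542994 to it drop by 1.89 and 2.20 at 12 HAI and rise by 2.42 and 2.72 from 12 to 24 HAI. With CA698466 the changes from 0 to 12 HAI were -0.78 and -1.09. The difference between LOC100037523 and LOC542994 changes by 0.32 at 12 HAI.

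Over the 15 arrays the log2 values of LOC100037523 and LOC542994 correlated with r = 0.936, and the 3 probe sets of LOC542993 with each other with r of 0.405 to 0.556. The 2 probe sets of LOC542984 correlated with r = 0.775. At 0 and 12 HAI both were under 32 on every array, so this r includes values treated only as bounds. CA733231 correlated with r = -0.393 with LOC100037523 and -0.559 with LOC542994. These values describe 15 arrays that share 5 stages and 1 scaling, and they are no test.

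Likeness of course was sought among 233 annotated probe sets with a stage mean of at least 64 (232 for LOC542984). They had a synonym, a named symbol or a match in the study's table of differential genes, so they do not stand for the whole array. Most like LOC100037523 were LOC542971, matched to a plastid glucose-6-phosphate/phosphate translocator (r = 0.945 and 0.926 for 2 probe sets), LOC542994, LOC543420, matched to a lipid-transfer protein (r = 0.90), and LOC543095 (r = 0.892). Most like LOC542994 were LOC543095 (r = 0.946 and 0.919), LOC100037523, LOC543420 (r = 0.916) and LOC542971 (r = 0.912). LOC543420 had a mean of 549 in dry seed, 119 at 12 HAI and 868 at 24 HAI. On the deposited scale it was thus low at 12 HAI, as LOC100037523 and LOC542994 were. LOC543420 was not run under the other scalings.

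For CA733231 of LOC542993 the nearest were LOC542847, matched to the calcium-binding protein CCD1 (r = 0.801), LOC606342 (r = 0.763), LOC543085, matched to a non-symbiotic hemoglobin (r = 0.641), LOC543469 (r = 0.599) and GAPN, an NADP-dependent glyceraldehyde-3-phosphate dehydrogenase (r = 0.569). LOC543085 had a mean of 570 at 0 HAI, 13406 at 12 HAI and 2434 at 24 HAI, and LOC542847 had 1892, 7196 and 2044. CA733231 stood for LOC542993 only through its values at 12 HAI, so its likeness to genes high at 12 HAI is not independent evidence. The neighbours of CA698466 were not sought. For BQ162050 of LOC542984 the 5 nearest were 4 histone probe sets (LOC732712 with r = 0.97, LOC543184 with r = 0.957 and 0.956, LOC732714 with r = 0.957) and LOC543441, a fructan exohydrolase (r = 0.963). LOC732712 had means of 80.4 in dry seed, 2253 at 24 HAI and 4385 at 48 HAI. BQ162050 was under 32 on all arrays of 0 and 12 HAI, so its r values include signals treated only as bounds.

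Other genes of glutathione use and antioxidant defence were followed as a list of 9 probe sets of 5 genes. They were the zeta class transferase GSTZ1 (LOC543412), which takes part in tyrosine breakdown, a 2-Cys peroxiredoxin (LOC542768), the seed peroxiredoxin PER1 (LOC543108), the plastid thioredoxin Trx-M (LOC542973) and the catalase CAT1. LOC542768 came from a table of genes that the study chose on these arrays, so its direction is not independent evidence. From 0 to 48 HAI 5 of the 9 rose and 1 fell, beside 17% and 23.8% of all probe sets, and the median change was 0.41 beside -0.30 for all probe sets.

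The 3 probe sets of the zeta class transferase passed as higher at 48 HAI, but in the F-test over the stages only 1 of them did (adjusted p = 0.0169, against 0.0840 and 0.0982). From 0 to 48 HAI the mean of one went from 1142 to 1521 (log2 change 0.41, adjusted p = 0.0447), that of another from 802 to 1276 (0.63, adjusted p = 0.0243) and that of the dimmest from 270 to 555 (1.11, adjusted p = 0.0159). From 0 to 12 HAI none of the 3 passed, with changes of 0.10, 0.29 and 0.28. Neither the dip of the phi class gene on the deposited scale nor the peak of CA733231 of LOC542993 was called in GSTZ1. These differences were not tested.

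The peroxiredoxins went opposite ways. PER1, an antioxidant of the dry seed, had a mean of 41204 at 0 HAI and 8871 at 48 HAI in the bright probe set of LOC543108 (log2 change -2.21, adjusted p = 6.54e-09), while its dim probe set had 173 and 166 (adjusted p = 0.937). LOC542768, the 2-Cys type, had 3733 at 0 HAI, 2828 at 12 HAI and 10732 at 48 HAI (log2 change from 0 to 48 HAI 1.52, adjusted p = 1.05e-07). Trx-M (LOC542973) was at 11.3 in dry seed and at 288 at 48 HAI, a rise of at least 8.98-fold (adjusted p = 3.08e-08). CAT1 did not pass in any contrast in either probe set, and its lowest unadjusted p was 0.0209, at 36 against 0 HAI (log2 change -1.36).

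**Figure D4:**
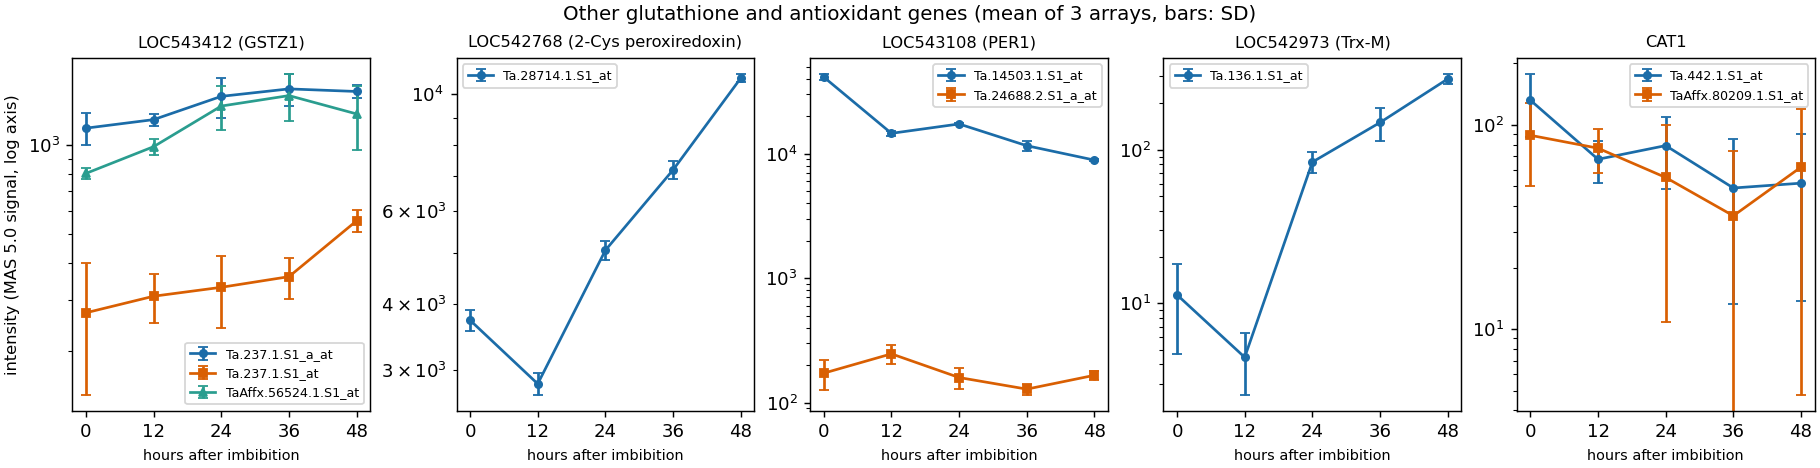
Mean signal of 3 arrays with SD (y axis, MAS 5.0 intensity on a log axis) for 9 probe sets of 5 other glutathione and antioxidant genes against hours after imbibition. LOC542768 climbs from 2828 at 12 HAI to 10732 at 48 HAI and LOC543108 (PER1) drops from 41204 to 8871 between 0 and 48 HAI in its bright probe set.

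In the successive steps few of the list passed. From 0 to 12 HAI 2 fell and none rose in limma (the dim probe set of PER1 had the lowest unadjusted p among those with a positive change, 0.0301), against 10.1% and 12.8% of all probe sets that rose and fell. At the next step 2 rose and 1 fell (13.3% and 14.8% of all). From 24 to 36 HAI 1 rose and 1 fell (2.41% and 2.99% of all), and at the last step 2 rose and 1 fell (5.34% and 5.28% of all). The medians of the list at these steps were -0.13, 0.25, 0.09 and 0.33, beside -0.23, -0.06, -0.02 and 0.02 for all probe sets. The count from 0 to 48 HAI dropped from 6 to 3 without replicate 3 of 48 HAI, and that from 36 to 48 HAI from 3 to 1 without replicate 1 of 36 HAI or replicates 1 or 2 of 48 HAI.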

How the data were processed

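RNA was measured on Affymetrix Wheat Genome Arrays. The values deposited by the authors are MAS 5.0 signals, an intensity on a linear scale that was scaled per array to a common trimmed mean. The image files were not analysed here, and MAS 5.0 subtracts mismatch signal, so dim values are uncertain. The depth of an array has no read count, and the number of arrays limits the precision. From these values log2(intensity + 16) was fitted for 61179 probe sets, without 111 manufacturer controls, with 5 stage means in limma 3.58.1 (R 4.3.3, lmFit and eBayes without intensity trend), with two-sided contrasts, a moderated F-test and Benjamini-Hochberg adjustment per test at a threshold of 0.05. Folds given as "at least" were taken with values under 32 set to 32. The labels call the replicates biological and the design text calls them independent experiments, without saying whether seed lots differed. Exact permutation tests compared within-array differences (Python 3.11.15). All columns were used. The fit was checked on simulated arrays and the permutation test on small made-up groups of values.

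Every probe set of the 4 genes is named. The probe set with the highest mean stands for a gene in pairs and correlations, a choice that for LOC542993 turned on its values at 12 HAI. For correlations the 5 nearest annotated probe sets are given. The members and lists were chosen with earlier results of these data known, and the within-array comparisons of 12 with 0 HAI, of 24 with 12 HAI and of probe sets of 1 gene were added after the data were seen. Members of the list of other genes were read from symbols or rice matches, since the gene table held no descriptions. Alternatives were other pseudocounts (4 and 64), an intensity trend, robust moderation, a filter at 64, 4 other scalings, a replicate block and leaving out each array.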

Additional observations from a re-analysis of the deposited data

How the results depend on the processing

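Of the alternatives other than leaving out an array, 304 of 370 values of single probe sets kept their direction and side of the threshold, 27 changed sign, 19 lost and 20 gained a call. Of those that leave out an array, 518 of 555 did. With the array medians set equal, the changes from 0 to 48 HAI were 0.22 for LOC100037523, 0.12 for LOC542994 and 0.094 for CA733231, and CA698466 gave 0.39 at 12 HAI and 0.019 at 36 HAI against 0 HAI. With the hybridization controls they were 0.51, 0.41 and 0.38 from 0 to 48 HAI, CA698466 gave 0.63, 0.26, 0.60 and 0.11 at 12, 24, 36 and 48 HAI against 0 HAI, LOC542994 gave 0.065 from 24 to 36 HAI and CA663935 -0.011 from 36 to 48 HAI. With the poly-A controls LOC100037523 rose by 0.78 at 12 HAI (adjusted p = 0.000966) and 1.36 at 48 HAI, LOC542994 by 0.46 at 12 HAI (adjusted p = 0.00949), 0.54 at 36 against 24 HAI and 1.26 at 48 HAI, CA733231 by 1.22 at 48 HAI and CA698466 by 1.54, 1.11, 1.93 and 0.95 at the 4 later stages, while CA663935 gave 0.42 at 36 against 24 HAI and -0.45 at 48 against 36 HAI, and BQ162050 0.35 from 24 to 36 HAI. The median over all probe sets at 12 against 0 HAI was -0.23 (log2) as deposited, 0.06 with equal medians, -0.04 after quantile normalization, 0.21 with the hybridization controls and 0.80 with the poly-A controls. The cause of these differences was not tested.

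The number of the 7 probe sets called at 24 against 0 HAI was 4 after quantile normalization and with the hybridization controls, instead of 2. It was 7 at 36 against 0 HAI with the hybridization controls, instead of 4, and 1 from 24 to 36 HAI with an intensity trend. With the poly-A controls the counts were 5 at 12, 7 at 24, 7 at 36 and 7 at 48 HAI against 0 HAI and 5 from 24 to 36 HAI. For the other glutathione and antioxidant genes, 1 was called at 36 against 24 HAI with equal medians and 0 with the hybridization controls. At 48 against 36 HAI 1 was called with a pseudocount of 4 and 0 with the hybridization controls, which gave 4 at 12 against 0 HAI. With the poly-A controls 5 were called at 12 and 7 at 24 against 0 HAI, and 5 at 24 against 12 HAI. Within arrays, the changes from 0 to 48 HAI of LOC100037523, LOC542994 and LOC542993 against LOC542984 were -5.45, -5.55 and -5.58 with a pseudocount of 4, -2.85, -2.95 and -2.96 with 64, and -3.15, -3.25 and -3.29 with the poly-A controls, and since LOC542984 was under 32 in dry seed none of these is a size. With CA698466 standing for LOC542993 at 12 against 0 and 24 against 12 HAI (this and the poly-A values within arrays were chosen after seeing the data) the changes were -0.78 and 1.71 for LOC100037523 and -1.09 and 2.02 for LOC542994.

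Leaving out 1 array gave 1 to 3 calls for the other genes from 0 to 12 HAI (1 without replicate 3 of 12 HAI), 1 to 3 from 24 to 36 HAI (1 without replicate 3 of 24 HAI), 1 to 3 at 48 against 36 HAI and 3 to 7 at 48 against 0 HAI. The within-array changes from 0 to 48 HAI ran from -0.0087 to 0.20 for LOC100037523 minus LOC542994, from -0.20 to 0.38 for LOC100037523 minus LOC542993 and from -0.27 to 0.28 for LOC542994 minus LOC542993. CA698466 ran from -0.12 to 0.064 at 12 against 0 HAI. At 36 against 24 HAI LOC542994 ran from -0.034 to 0.039 and CA663935 from -0.27 to 0.095.

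Arrays with the same replicate number did not deviate together (r of -0.030 to 0.051 over 30 pairs), so the numbers were not taken to pair samples. With the replicate number as a block the change of LOC542994 from 0 to 48 HAI was -0.33 (adjusted p = 0.0588), that of CA663935 from 12 to 24 HAI was -0.59 (adjusted p = 0.0666), and the block changed no other call among the 7 probe sets. For the other glutathione and antioxidant genes it gave 2 calls instead of 3 at 48 against 36 HAI, 6 instead of 5 at 36 against 0 HAI and 5 instead of 6 at 48 against 0 HAI. Signals near or under 32 limit what can be said of LOC542984 before 24 HAI.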

Other observations

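Phytochelatin synthase (PCS1, LOC542834), which joins glutathione units into metal-binding peptides, was looked up after the other values had been seen. Its mean intensity in the order of the stages was 216, 153, 94.5, 99.4 and 78.3 (n = 3 each). On the deposited scale it was lower than in dry seed at 24, 36 and 48 HAI, by -1.06, -1.02 and -1.32 on the log2 scale (limma, adjusted p = 0.00234, 0.00271 and 0.000399). Of all probe sets 22.3%, 24.8% and 23.8% were lower in these contrasts. PCS1 was not run under the other scalings, on which contrasts with 0 HAI depended for other genes.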
